A study of Mus musculus with 17 samples.

Results

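The 2 arrays of VENUS-negative myelo-dendritic progenitors (MDPs), titled IRF8_neg_MDP, were compared with the 3 arrays of MDPs titled IRF8_ko_MDP, which makes 5 of the 17 arrays of the series. They were chosen by these titles, and all 17097 genes that had a probe set with 1 gene symbol were tested. Both groups came from mouse bone marrow, carried the same genotype label, IRF8-deficient, and were sorted through the same gate, negative for lineage antigens, Sca1 and CD127 and positive for CD117 and the M-CSF receptor. The mice of both groups were 6 to 10 weeks old. The VENUS-negative cells (n = 2 pools) were described as lacking VENUS, a fluorescent reporter protein. The sources used here do not say what drives the reporter, whether the label IRF8-deficient refers to the reporter allele, or how many mice made a pool of this group. The knockout-labelled cells (n = 3 pools) were described as MDPs with an IRF8 knockout, and 5 mice made each pool, as the design text states. The sort for VENUS therefore moved with any difference in allele between the mice of the groups, and the 2 cannot be told apart in this comparison.

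The other groups of the series were VENUS-positive MDPs (titled IRF8_PAC_MDP, labelled IRF8-deficient, n = 3), spleen granulocytes (n = 3), spleen macrophages (n = 3) and wild-type MDPs (n = 3). They entered the fit only to share its estimate of the spread, and their levels are given where they place a gene. All levels are the RMA values that the authors deposited, in log2 units, so a difference of 1 stands for a 2-fold difference. The median over all arrays and probe sets was 4.38, and the lower quartile of an array lay between 3.18 and 3.42. No fold is given where either group stood near or under that quartile. Over all probe sets the 2 VENUS-negative arrays correlated at r = 0.967 with each other, the knockout-labelled arrays at 0.972 to 0.976 among themselves and arrays across the 2 groups at 0.937 to 0.947, values that run across probe sets and not across independent replicates.

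As background, MDPs are bone marrow progenitors regarded as a common source of monocytes, macrophages and dendritic cells. IRF8 is a transcription factor of the interferon regulatory factor family. It acts together with the ETS factor PU.1, which Spi1 encodes, and mice without it accumulate granulocytes and have few monocytes and some dendritic cell types. The neighbouring branch of blood formation, to red cells, platelets and mast cells, runs on GATA factors and their partners TAL1, GFI1B and KLF1, and PU.1 and GATA1 are known to oppose each other.

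Genes of red cells and platelets, and some genes of mast cells, were higher in VENUS-negative than in knockout-labelled MDPs, and genes of monocytes and macrophages were lower. Of 17097 genes, 1102 (6.45%) were called, meaning that the adjusted p of limma's moderated test was under 0.05. Among them 509 (2.98%) were higher and 593 (3.47%) were lower in VENUS-negative MDPs. The difference was at least 2-fold for 888 of them, 415 higher and 473 lower, and at least 8-fold for 68 that were higher and 54 that were lower. The median difference over all genes was 0.00. The arrays of the groups did not overlap for 15.3% of all genes in the higher and 16.5% in the lower direction. Among called genes they did not overlap for all 509 higher and for 591 of the 593 lower. A gap between the arrays therefore adds little to a call. Of the 1102 called genes, 467 kept their call and direction when each of the 5 arrays was left out in turn, 221 of them higher and 246 lower. In these sorted pools fewer cells of a type and less RNA per cell cannot be told apart.

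**Figure D1:**
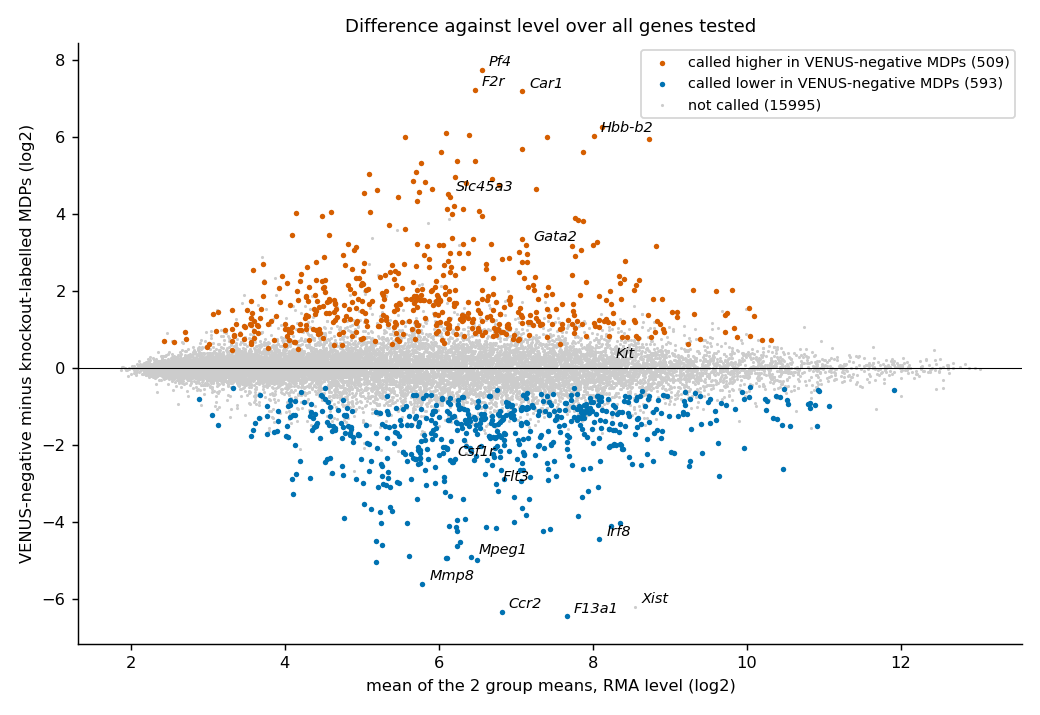
Log2 difference of VENUS-negative minus knockout-labelled MDPs (y axis) against the mean of the 2 group means (x axis, RMA level in log2) for 17097 genes. Orange points are the 509 genes called higher and blue points the 593 called lower. Pf4 lies highest at 7.73 and F13a1 lowest at -6.44, while Kit lies near 0.

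Irf8 itself stood at 5.49 and 6.25 in the VENUS-negative pools, against 10.32, 10.42 and 10.18 in the knockout-labelled pools. Both VENUS-negative arrays lay below all knockout-labelled ones, by a log2 difference of -4.44 (SE 0.46, limma adjusted p = 2.59e-05), or 21.8-fold lower. Its other probe set differed by -3.66. Wild-type MDPs had 10.27, 10.56 and 10.19, and knockout-labelled MDPs differed from them by -0.03 for Irf8 (SE 0.42, adjusted p = 0.995). The sources used here do not say whether the probe sets fall inside the part of Irf8 that was deleted, so these levels do not check the knockout label. The titles of the VENUS groups name IRF8, and whether the sort for VENUS set the difference in Irf8 was not tested. Among the 8 of 9 interferon regulatory factor genes that were measured, Irf3 was higher (1.21, adjusted p = 0.00500) and Irf1 was lower (-0.70, adjusted p = 0.0471). Of all genes 2.98% were higher and 3.47% lower. The call of Irf1 was lost without any 1 of the 5 arrays, and the other probe sets of Irf3 differed by 0.21 and 0.43. The remaining 5 members, Irf2, Irf4, Irf5, Irf7 and Irf9, ranged from -0.54 to 0.40 and did not pass the test. Spi1, the gene of PU.1, stood at 6.48 and 6.23 in VENUS-negative MDPs and at 7.69, 7.46 and 7.58 in knockout-labelled ones, a difference of -1.22 (SE 0.18, adjusted p = 0.000456) with no overlap.

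Of 4 measured genes of the sort gate and of MDP markers, 3 were lower in VENUS-negative MDPs, beside 3.47% of all genes. Flt3 and Cx3cr1 among them were not part of the gate. The sort read proteins at the cell surface and the arrays read RNA, so these levels do not check the sort. Csf1r encodes the M-CSF receptor by which both groups were sorted as positive. It stood at 5.09 and 4.83 in VENUS-negative MDPs, against 7.47, 7.39 and 7.19 in knockout-labelled MDPs, 5.22-fold lower without overlap (log2 difference -2.39, SE 0.30, adjusted p = 0.000116). Flt3, the receptor gene of the dendritic cell growth factor FLT3 ligand, stood at 5.33 and 5.15, against 8.34, 8.69 and 7.71 in knockout-labelled MDPs (-3.01, SE 0.47, adjusted p = 0.000837). Cx3cr1, a chemokine receptor gene used to mark MDPs, was lower too (-1.74, SE 0.40, adjusted p = 0.0145), although its call was lost without VENUS-negative pool 1 (adjusted p = 0.12) or pool 2 (0.0543). Kit, which encodes CD117, stood at 8.20 and 8.38 in VENUS-negative MDPs and at 8.08, 8.21 and 8.08 in knockout-labelled MDPs, a difference of 0.16 (SE 0.26, adjusted p = 0.883). Kit thus lay at nearly the same level on all 5 arrays, while the markers of the monocyte and dendritic cell branch stood apart. Ly6a (Sca1) and Il7r (CD127) were not analysed here. Of 9 measured lineage antigen genes, Ly6c1 was lower (-2.40, adjusted p = 0.00182), beside 3.47% of all genes. The other 8, from Cd3e to Ncr1, differed by -0.14 to 0.29 and did not pass the test.

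**Figure D2:**
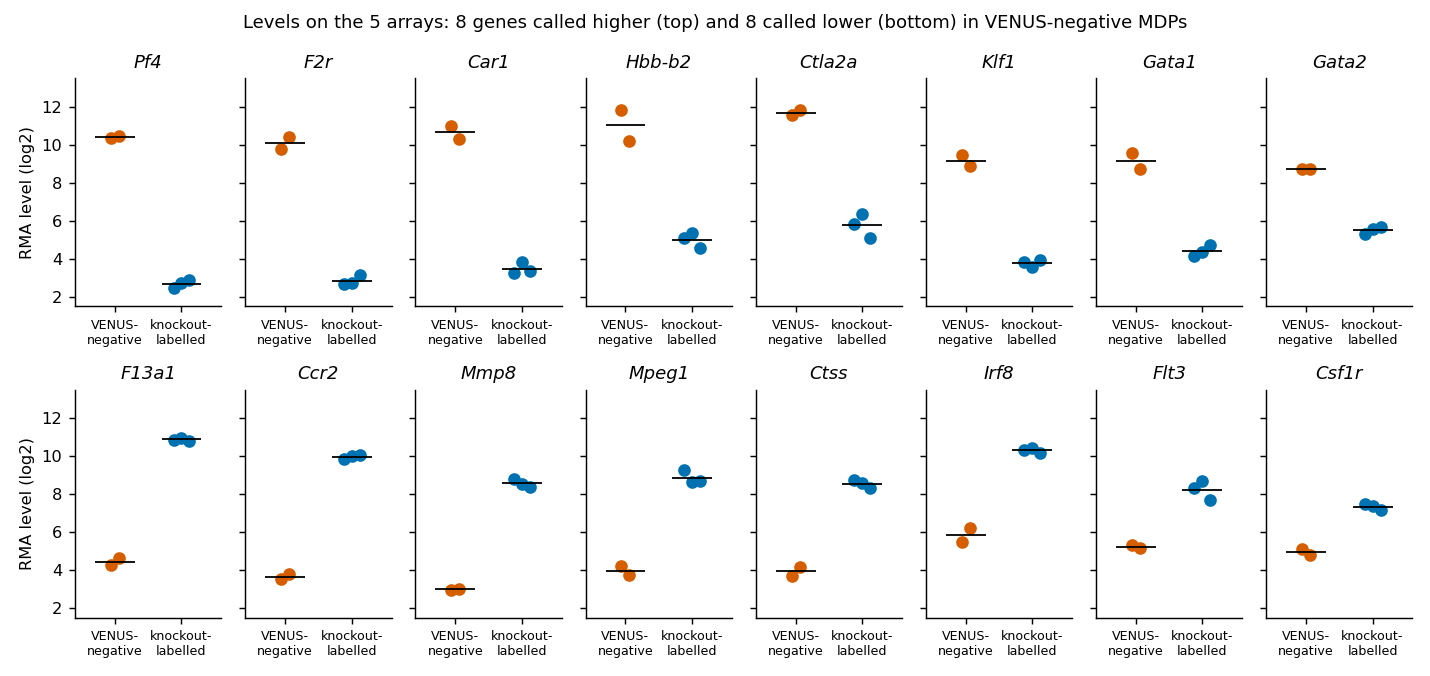
RMA levels (log2, y axis) of 16 genes on the 2 VENUS-negative arrays (orange, left in each panel) and the 3 knockout-labelled arrays (blue, right), with a line at each group mean. The top row holds 8 genes called higher and the bottom row 8 called lower in VENUS-negative MDPs. In no panel do the groups overlap, as for nearly all called genes.

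Of 40 measured genes of monocytes and macrophages, 21 were lower and 0 higher in VENUS-negative MDPs, beside 3.47% and 2.98% of all genes, and the median difference was -1.77. Without each array in turn, 15 of the 21 kept their call. F13a1, which encodes the A chain of coagulation factor XIII and is made by monocytes, had 4.26 and 4.63 in VENUS-negative pools, against 10.87, 10.97 and 10.81 in knockout-labelled pools. This was the largest fall among called genes, 86.8-fold (log2 difference -6.44, SE 0.18, adjusted p = 5.73e-11). Ccr2, the chemokine receptor by which monocytes leave the marrow, had 3.52 and 3.79, against 9.86, 9.99 and 10.08 in knockout-labelled pools (-6.33, adjusted p = 5.40e-09). Its other probe sets differed by -5.62 to -2.49. Mpeg1, the pore-forming protein perforin-2 of macrophages, had 4.21 and 3.75 in VENUS-negative pools and 9.25, 8.66 and 8.72 in knockout-labelled pools (-4.90, adjusted p = 4.18e-08). Ms4a6c, a membrane protein of the MS4A family (-4.23), and S100a4, a calcium-binding protein (-4.23), completed the 5 largest falls of the list. The VENUS-negative arrays lay below all knockout-labelled arrays for each of these 5 genes, as for 591 of the 593 genes called lower.

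Some genes were low in both groups, of which Ly86 belongs to that list and Ctsh does not. Ly86, the gene of the Toll-like receptor cofactor MD-1, stood low in both groups, at 4.17 and 4.84 in VENUS-negative pools and at 3.87, 3.08 and 3.24 in knockout-labelled pools, against 10.08 ± 0.20 (SD, n = 3) in wild-type MDPs. Its difference here was 1.11 without overlap (adjusted p = 0.0541). Ly86 was called higher with dim genes left out, with the mean of a gene's probe sets and without knockout-labelled pool 1. In the other alternatives it was not called higher. Ctsh, a cathepsin gene, was likewise at 3.87 and 3.84 in VENUS-negative pools and at 3.78, 3.23 and 3.31 in knockout-labelled pools, against 8.14 ± 0.71 (SD, n = 3) in wild-type MDPs. These 2 genes were chosen after their values were seen.

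The remaining largest falls included immune receptors and secreted proteins. Among the 15 largest, after F13a1, Ccr2, Mpeg1 and Ms4a6c, came Mmp8, the neutrophil collagenase, with 2.97 and 3.01 in VENUS-negative pools and 8.81, 8.51 and 8.41 in knockout-labelled pools (log2 difference -5.59, SE 0.49, adjusted p = 4.79e-06). Siglece, an inhibitory sialic acid receptor of neutrophils and monocytes, differed by -4.93, Clec5a, a C-type lectin receptor, by -4.59, and Ccl3, a chemokine, by -4.50. The cysteine protease gene Ctss, whose product trims the invariant chain of MHC class II, stood at 3.68 and 4.19, against 8.73, 8.62 and 8.32 in knockout-labelled pools (-4.62, adjusted p = 3.06e-08). Tctex1d1 (-5.04), Gas7 (-4.98), the transporter gene Abca9 (-4.93) and Tmem178 (-4.86) lay in the same range, and Irf8 and 1 RIKEN gene made up the 15. Groups did not overlap for any of these 15 genes, by the rule that chose them.

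Members of the granule gene lists, drawn up for neutrophil formation, were lower where they were called. These lists also hold genes of receptors, such as Csf3r, Trem1, Trem3 and Mrgpra2b. The list members Mpo, Elane, Ltf and Camp were not among those called. Of 15 measured primary granule genes 3 were lower and 0 higher, beside 3.47% and 2.98% of all genes, with a median difference of -1.24. They were Mgst1, a glutathione transferase of membranes (-4.11, adjusted p = 1.17e-05), Prtn3, proteinase 3 (-1.48, adjusted p = 0.0358), and Gstm1 (-1.29, adjusted p = 0.0302). The other probe set of Mgst1 differed by 0.22, the call of Prtn3 was lost without any 1 of the 5 arrays, and that of Gstm1 without VENUS-negative pool 1 (adjusted p = 0.288) or any knockout-labelled pool. A fit of only the 5 arrays called 9 of these 15 genes and one of the 11 MDP arrays called 8. Of 28 measured secondary and tertiary granule genes 6 were lower and 0 higher (median -0.57), and 5 of the 6 kept their call without each array. Besides Mmp8 they were Mrgpra2b, a Mas-related receptor (-4.15), the TREM family receptor Trem3 (-3.99), Hp, haptoglobin (-2.58), Csf3r, the G-CSF receptor (-2.20), and Trem1 (-2.13), the one whose call was lost, without VENUS-negative pool 1 (adjusted p = 0.135). Mrgpra2b had 4.14 and 5.22 in VENUS-negative MDPs, against 9.49, 8.79 and 8.20 in knockout-labelled MDPs.

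Transcription factors of the myeloid branch were lower in part. Of 32 measured members 10 were lower and 0 higher, beside 3.47% and 2.98% of all genes, with a median of -0.38. The 5 largest falls were those of the Krüppel-like factors Klf2 (-3.40, adjusted p = 6.68e-05), Klf4 (-2.44, adjusted p = 0.0348) and Klf6 (-1.92, adjusted p = 0.00120), of the basic leucine zipper factor Nfil3 (-2.48, adjusted p = 0.000699) and of Cebpb (-1.79, adjusted p = 0.00781). Klf4, known in mice for monocyte formation, had 3.37 and 3.23 in VENUS-negative pools and 6.60, 6.11 and 4.52 in knockout-labelled pools. Its call was lost without VENUS-negative pool 1 or 2 and without knockout-labelled pool 1 or 2. The call of Cebpb was lost without VENUS-negative pool 2 (adjusted p = 0.0612), and its other probe sets differed by -0.31 and -0.30.

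Of 29 measured receptor genes for growth factors and cytokines 11 were lower and 1 was higher, beside 3.47% and 2.98% of all genes. The median was -0.56, or -0.37 without VENUS-negative pool 1. Il6st, the signalling chain gp130 of the interleukin-6 receptor family, had 6.37 and 6.03 in VENUS-negative pools, against 10.10, 10.24 and 10.54 in knockout-labelled pools, 17.1-fold lower (-4.10, SE 0.20, adjusted p = 1.46e-08). Flt3, Csf1r and Csf3r were among the others. The member that was higher was Epor, the erythropoietin receptor, with 9.23 and 7.54 in VENUS-negative pools and 4.33, 4.03 and 4.43 in knockout-labelled pools (4.12, adjusted p = 3.85e-05). The share that was higher, 1 of 29, lay near that of all genes (2.98%). Groups did not overlap for Il6st or Epor, as for nearly all called genes. Of 15 chemokine receptors 3 were lower and 0 higher, beside the same shares of all genes. These were Ccr2, Cx3cr1 and Ccr1, a receptor for CCL3 (-3.88, adjusted p = 0.000363).

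Among conventional dendritic cell genes 6 of 18 were lower and 1 was higher, with a median of -0.04. Of all genes 3.47% were lower and 2.98% higher, which is the background for the other lists of this paragraph as well. The lymphocyte receptor gene Btla (-3.66, adjusted p = 7.07e-05), Flt3, the signal regulatory protein gene Sirpa (-1.99, adjusted p = 4.72e-05) and the kynurenine monooxygenase gene Kmo (-1.95, adjusted p = 0.000195) were among those lower. Cd24a, a surface glycoprotein that early red cells carry as well, was the one that was higher. Cd24a had 10.85 and 10.36 in VENUS-negative pools, against 8.53, 8.43 and 8.83 in knockout-labelled pools (2.01, adjusted p = 0.000430). Of 11 plasmacytoid dendritic cell genes 2 were lower, Tcf4, a factor needed for that cell type (-1.71, adjusted p = 8.31e-05), and Cox6a2 (-1.71, adjusted p = 0.0127), whose call was lost without VENUS-negative pool 1 (0.226). Of 13 genes of MHC class II presentation Ctss was lower and H2-Ob, a chain of the peptide-loading modulator H2-O, was higher (1.87, adjusted p = 0.000991). In the list of cathepsins, cystatins and lysosomal genes 8 of 25 were lower and 1 was higher (median -0.53), and 3 of these 9 kept their call without each array. The lysosomal genes Psap (-2.21, adjusted p = 0.000165) and Cd68 (-1.89, adjusted p = 0.00554) and the cathepsin gene Ctsl (-1.44, adjusted p = 0.00648) were lower besides Ctss. The call of Cd68 was lost without VENUS-negative pool 1 (adjusted p = 0.0605) and that of Ctsl without pool 2 (0.111). Ctse, an aspartic protease, was higher, with 9.49 and 6.70 in VENUS-negative pools and 3.28, 2.92 and 3.51 in knockout-labelled pools (4.86, SE 0.68, adjusted p = 0.000330).

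In the opposite direction, transcription factors of the erythroid, megakaryocyte and mast cell branch were higher. Of 20 measured members 11 were higher and 1, Mitf, was lower (-1.43, adjusted p = 0.0428, called only without knockout-labelled pool 3 when 1 of the 5 arrays was left out), beside 2.98% and 3.47% of all genes, and the median was 1.19. Klf1, the globin gene activator, had 9.46 and 8.87 in VENUS-negative pools, against 3.83, 3.59 and 3.94 in knockout-labelled pools (5.38, SE 0.67, adjusted p = 0.000118). Gata1 had 9.58 and 8.75, against 4.16, 4.38 and 4.71 in knockout-labelled pools (4.75, SE 0.55, adjusted p = 6.10e-05). The groups did not overlap for either factor, as for all 509 genes called higher. Gfi1b, a repressor that acts with GATA1 (3.94, adjusted p = 1.42e-05), Gata2 (3.20, adjusted p = 5.43e-07) and Tal1 (3.00, adjusted p = 0.00341) followed. Gata2, the GATA factor of stem and mast cells, had 8.75 and 8.71 in VENUS-negative pools and 5.33, 5.58 and 5.68 in knockout-labelled pools, 9.20-fold higher, and its other probe set differed by 6.04. Of the 12 called members 7 kept their call without each array in turn.

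Genes of the red cell itself were higher with a wide spread between the VENUS-negative pools. Of all genes 2.98% were higher and 3.47% lower. Of 26 measured erythroid genes 15 were higher and 0 lower, with a median of 2.33, and 9 of the 15 kept their call without each array. Car1, a carbonic anhydrase of red cells, averaged 10.67 ± 0.47 in VENUS-negative pools (SD, n = 2), against 3.49 ± 0.32 in knockout-labelled pools (SD, n = 3), without overlap (7.18, SE 0.63, adjusted p = 4.65e-06). Car2, another carbonic anhydrase, differed by 6.26 (76.8-fold, adjusted p = 6.02e-05), the lipid transporter gene Mfsd2b, which exports sphingosine-1-phosphate from red cells and platelets, by 6.09, and the water channel gene Aqp1 by 6.05. Hbb-b2, a beta-globin gene, had 11.84 and 10.20 in VENUS-negative pools, against 5.09, 5.35 and 4.57 in knockout-labelled pools, 65.0-fold higher (6.02, SE 0.74, adjusted p = 0.000108). Hba-a1, an alpha-globin gene, had 11.94 and 9.41, against 4.57, 5.54 and 5.12 in knockout-labelled pools (5.60, SE 1.00, adjusted p = 0.00245), and its call was lost without VENUS-negative pool 1 (0.0585). The globin genes have near-identical copies, so their probe sets cannot be assigned to 1 copy, and the other probe sets of Hbb-b2 differed by 0.48 to 5.36. Red cells were lysed before the sort, per the labels' protocols, and red cell RNA from outside the sorted cells as a part of these values was not tested. Ermap, an erythroblast membrane protein (5.69), and Slc14a1, the urea transporter of red cells (5.37), were also among the 15 largest rises.

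The haem pathway split. Of 13 measured members 5 were higher and 2 were lower, beside 2.98% and 3.47% of all genes. The median was 0.97, with 0.23 without VENUS-negative pool 1 and 1.75 without pool 2. Alad, the second enzyme of the pathway, was higher (1.93, adjusted p = 0.0127), as were Ppox (1.44, adjusted p = 0.0451) and the mitochondrial transporter gene Abcb10 (1.31, adjusted p = 0.0325). Alas1, the first enzyme in cells other than red cells, was lower, with 7.02 and 7.61 in VENUS-negative pools and 9.58, 9.57 and 9.75 in knockout-labelled pools (-2.32, adjusted p = 0.000364). Slc25a37, mitoferrin-1, was lower as well (-1.25, adjusted p = 0.00422), with its other probe sets at -1.53 and -0.15. Both falls kept their call without each array in turn, and none of the 5 rises did. Without VENUS-negative pool 1 the adjusted p was 0.195 for Alad and 0.541 for Ppox.

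Megakaryocyte and platelet genes were higher in 14 of 23 measured members and lower in 0, with a median of 1.06 (1.73 with dim genes left out), and 8 of the 14 kept their call without each array. Of all genes 2.98% were higher and 3.47% lower. The filter on dim genes kept a gene that was bright in any group, VENUS-negative MDPs included, so the median under it leans towards the rises. Pf4, a chemokine of platelet granules, gave the largest difference among called genes. It had 10.38 and 10.47 in VENUS-negative pools, against 2.48, 2.72 and 2.88 in knockout-labelled pools, which lay below the lower quartile of the arrays (7.73, SE 0.97, adjusted p = 0.000122). F2r, the thrombin receptor gene, had 9.77 and 10.39, against 2.68, 2.74 and 3.17 in knockout-labelled pools (7.22, SE 0.69, adjusted p = 1.17e-05). The integrin gene Itga2b, which encodes CD41, had 7.91 and 8.32 in VENUS-negative pools and 4.86, 4.55 and 4.92 in knockout-labelled pools (3.34, SE 0.27, adjusted p = 2.22e-06). Vwf, von Willebrand factor (2.67, adjusted p = 0.000222), and the integrin gene Itgb3 (2.35, adjusted p = 0.0156) were higher too. The call of Itgb3 was lost without VENUS-negative pool 1 or 2 and without knockout-labelled pool 2.

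Mast cell genes rose in part. Of 23 measured mast cell and basophil genes 5 were higher and 1 was lower, beside 2.98% and 3.47% of all genes, with a median of 0.17. With dim genes left out the median was 1.75. That filter kept a gene that was bright in any group, VENUS-negative MDPs included, so its median leans towards the rises. Cpa3, the carboxypeptidase of mast cells, had 8.16 and 8.70 in VENUS-negative pools, against 2.52, 4.09 and 2.75 in knockout-labelled pools (5.31, SE 0.75, adjusted p = 0.000340). Ms4a2, the beta chain of the high-affinity IgE receptor, differed by 5.10 (adjusted p = 0.000205) and Slc45a3 by 4.50 (SE 0.17, adjusted p = 1.55e-09). Gzmb, granzyme B, had 4.47 and 6.73 in VENUS-negative pools and 2.95, 2.91 and 3.11 in knockout-labelled pools (2.61, adjusted p = 0.00153). Hdc, which makes histamine, was higher as well (2.41, adjusted p = 0.0123), with its call lost without VENUS-negative pool 1 or 2. The member that was lower was Fcer1g, a signalling chain that monocytes share (-2.10, adjusted p = 5.31e-05). Of 6 eosinophil genes only Siglecf was called, as higher (1.93, adjusted p = 0.0245), with its call lost without VENUS-negative pool 1 or 2 or knockout-labelled pool 2. Prg2 had 8.07 and 7.44 in VENUS-negative pools and 4.01, 4.11 and 3.83 in knockout-labelled pools. It did not pass the test (3.77, SE 1.26, adjusted p = 0.104), and reached 10.26 in wild-type pool 3, whose spread enters the fit. A fit of only the 5 arrays called 2 of the 6 eosinophil genes, both as higher.

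Genes of stem and early progenitor cells were higher in 10 of 30 measured members and lower in 1, Satb1 (-1.91, adjusted p = 6.07e-05). Of all genes 2.98% were higher and 3.47% lower. The list median was 0.61, and it was 0.36 without VENUS-negative pool 2. The protease inhibitor genes Ctla2a and Ctla2b differed by 5.94 (adjusted p = 3.26e-05) and 4.64 (adjusted p = 5.17e-06). They are close copies of each other, so their probe sets are uncertain between them. Ctla2a had 11.57 and 11.84 in VENUS-negative pools, against 5.83, 6.38 and 5.08 in knockout-labelled pools. Angpt1, the TIE2 ligand angiopoietin-1, averaged 8.70 ± 0.27 in VENUS-negative pools (SD, n = 2) and 3.73 ± 0.46 in knockout-labelled pools (SD, n = 3), without overlap (4.97, SE 0.43, adjusted p = 4.36e-06). The adhesion receptor gene Adgrg1 (2.78, adjusted p = 0.000146) and Gcnt2 (2.33, adjusted p = 0.00143) followed, and the 3 other probe sets of Gcnt2 differed by 0.20 to 0.51.

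The rest of the 15 largest rises were Tspan33, a tetraspanin (6.00), Hemgn, the nuclear protein hemogen of blood progenitors (5.98), and Ces2g, a carboxylesterase (5.59). Tspan33 had 10.87 and 9.95 in VENUS-negative pools and 5.15, 3.61 and 4.46 in knockout-labelled pools. Other probe sets of Tspan33 differed by 6.32, 0.76 and 0.40. As for the falls, the rule that chose these 15 genes took only genes without overlap.

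Other named genes had probe sets that differed from the one used. A weaker difference in the same direction was given by the other probe set of Abca9 (-2.46), Tctex1d1 (-2.39), Ms4a6c (-1.82), Mfsd2b (2.73) and Ms4a2 (1.87), each past the test when every probe set was tested. The other probe sets of Gas7 differed by -4.92 to -0.93 and those of Tcf4 by -1.30 and -0.82. The calls of Abcb10, Bcl2l11, Cdkn1a, Ctsl, Cx3cr1, Hdc, Itgb3, Klf6 and Rtp4 rest on 1 probe set each. Their other probe sets did not pass limma's test when every probe set was tested. These differed by 0.13 and 0.17 for Abcb10, -0.64 to -0.06 for Bcl2l11, -0.66 for Cdkn1a and -0.08 for Ctsl. They differed by -1.15 for Cx3cr1, 1.18 for Hdc, 0.38 for Itgb3 and -1.09 for Rtp4. For Klf6 their adjusted p was 0.229 and 0.168. The other probe sets of Tcf4, Cebpb, Gcnt2, Irf3 and Mgst1, given above, did not pass it either.

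**Figure D3:**
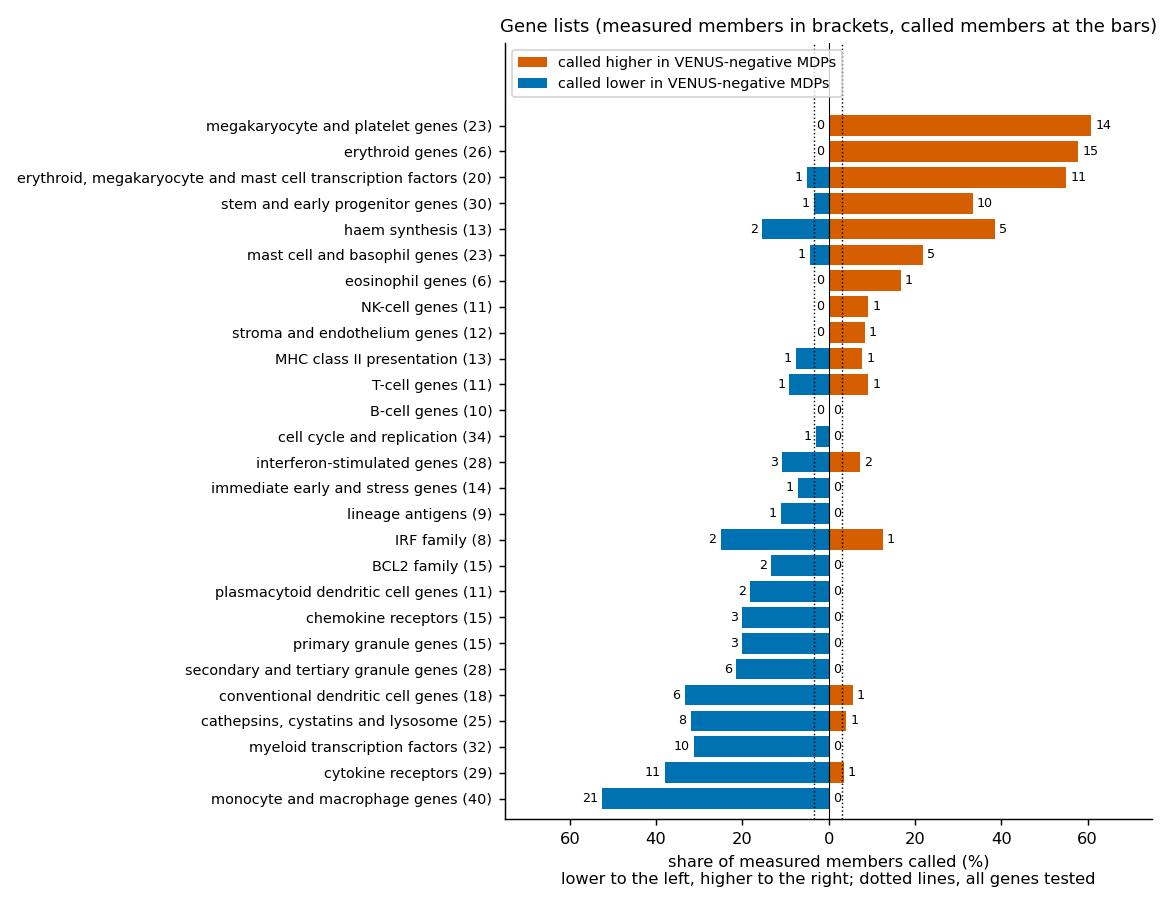
Share of the measured members of the 27 gene lists with at least 6 measured genes (the gate and sex-linked lists are left out) called higher (orange, to the right) or lower (blue, to the left) in VENUS-negative than in knockout-labelled MDPs, in percent, with the number called at each bar. The dotted lines mark 2.98% and 3.47% of all genes. The megakaryocyte and platelet list (14 of 23) and the erythroid list (15 of 26) reach farthest to the right among these 27, and the monocyte and macrophage list (21 of 40) farthest to the left.

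In the lists that follow 1 to 5 members were called, beside 6.45% of all genes. Of 34 measured cell cycle and replication genes 1 was called, and the median was -0.09. It was Cdkn1a, the cell cycle inhibitor p21, which was lower (-1.46, adjusted p = 0.0112, lost without VENUS-negative pool 2). Ccnd1 differed by -0.64 (adjusted p = 0.197) on the probe set used. Its other probe sets differed by -0.95 (adjusted p = 0.0599) and -1.65 (0.0105), the latter past the test when every probe set was tested. Of 15 genes of the BCL2 family Pmaip1 (-2.87, adjusted p = 0.00248) and Bcl2l11 (-1.59, adjusted p = 0.0293), both of which promote cell death, were lower. The call of Bcl2l11 was lost without VENUS-negative pool 2, where its adjusted p was 0.394, and without any knockout-labelled pool. Of 28 interferon-stimulated genes Isg20 (2.98) and Igtp (1.44) were higher and Rtp4 (-1.78), Ifit2 (-1.15) and Oas2 (-1.12) were lower, and all 5 calls were lost without VENUS-negative pool 1. Of 14 immediate early and stress genes, which respond to cell handling, Fos was lower (-2.18, adjusted p = 0.0476) and lost its call without VENUS-negative pool 1 (0.459) or knockout-labelled pool 1 or 2, and Fosb differed by -1.90 (adjusted p = 0.228).

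Markers of other cell types were read for RNA from cells outside the gate, beside 6.45% of all genes called in either direction. Of 10 measured B-cell genes 0 were called by limma (2 had an unadjusted p under 0.05), and the list median was -0.10, with Cd79b at -0.91 (adjusted p = 0.149) and Vpreb1 at -0.97 (adjusted p = 0.277). Of 11 T-cell genes Lat, a signalling adaptor that mast cells and platelets also use, was higher (2.83, adjusted p = 4.27e-05) and Cd28 was lower (-1.99, adjusted p = 0.000323). Of 11 NK-cell genes Gzmb alone was higher, and Eomes differed by 0.21 (adjusted p = 0.737). Of 12 genes of stroma and endothelium Emcn was higher (0.99, adjusted p = 0.0304, lost without VENUS-negative pool 1 and without knockout-labelled pool 1 or 2), and Pecam1 was not called (adjusted p = 0.119). The mean level of the B-cell list was 3.94 to 4.06 in VENUS-negative pools and 4.11 to 4.32 in knockout-labelled pools, that of the T-cell list 3.97 to 4.21 and 3.83 to 4.08, that of the NK-cell list 4.30 to 4.41 and 3.99 to 4.15, and that of the stroma and endothelium list 4.08 to 4.16 and 3.98 to 4.10, and their part in the results was not tested. Sex-linked transcripts moved with the groups. Xist, which the inactive X chromosome of females makes, had 5.37 and 5.54 in VENUS-negative pools and 11.63, 11.88 and 11.41 in knockout-labelled pools (-6.18, SE 1.81, adjusted p = 0.0582), and a fit of the 5 arrays alone called it (adjusted p = 0.000417). The 2 other probe sets of Xist differed by -6.38 (adjusted p = 0.0332) and -5.84 (0.0131), each past the test when every probe set was tested. The Y-linked gene Eif2s3y had 7.88 and 7.83 in VENUS-negative pools and 4.86, 2.45 and 6.70 in knockout-labelled pools (3.18, adjusted p = 0.183), and Uty differed by 1.28 (adjusted p = 0.107). The sources used here do not say which sex the mice had, and its part in the other differences was not tested.

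The levels in the other MDP groups place these genes. The comparisons below share arrays with the main one, so their values are set side by side and not counted against each other. Of all genes 5.48% were called between VENUS-negative and wild-type MDPs, 0.907% between knockout-labelled and wild-type MDPs and 5.87% between VENUS-negative and VENUS-positive MDPs. F13a1, Irf8, Il6st and Mpeg1 stood apart in VENUS-negative MDPs. F13a1 differed from wild-type by -6.05 in VENUS-negative MDPs (adjusted p = 1.38e-10) and by 0.39 in knockout-labelled MDPs (adjusted p = 0.481). Mpeg1 differed from wild-type by -5.66 in VENUS-negative (adjusted p = 1.52e-08) and by -0.75 in knockout-labelled MDPs (adjusted p = 0.247). For Mmp8 it was the knockout-labelled cells that stood above wild-type, by 4.03 (adjusted p = 0.000322), and the VENUS-negative cells differed from wild-type by -1.56 (adjusted p = 0.089). Tctex1d1 (3.81), Siglece (3.24) and Ccr1 (3.43) were likewise higher in knockout-labelled than in wild-type MDPs, while their VENUS-negative levels differed from wild-type by -1.23 (adjusted p = 0.102), -1.69 (0.0588) and -0.45 (0.804). Ccr2 and Tmem178 differed both ways. Ccr2 was higher in knockout-labelled than in wild-type MDPs by 2.36 (adjusted p = 0.000183) and lower in VENUS-negative than in wild-type MDPs (-3.96, adjusted p = 4.79e-07).

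Among the rises, Gata2 and Slc45a3 stood apart in VENUS-negative MDPs. Gata2 differed from wild-type by 2.66 in VENUS-negative MDPs (adjusted p = 6.51e-06) and by -0.55 in knockout-labelled MDPs (adjusted p = 0.376). For Hbb-b2 the knockout-labelled cells stood below wild-type, by -5.47 (adjusted p = 0.000711), and the VENUS-negative cells differed from wild-type by 0.55 (adjusted p = 0.830). Ctse showed the same order of levels, with -4.29 in knockout-labelled MDPs (adjusted p = 0.00225) and 0.57 in VENUS-negative MDPs (adjusted p = 0.798). Car1 was higher than wild-type in VENUS-negative MDPs (3.46, adjusted p = 0.00342) and lower than wild-type in knockout-labelled MDPs (-3.72, adjusted p = 0.00359). Wild-type pool 3 stood above the other wild-type pools for some of the largest rises, with Pf4 at 8.40 against 2.82 and 5.46 and Hbb-b2 at 12.45 against 9.68 and 9.29, so the wild-type means rest in part on that array. Wild-type pool 3 stood above the others among the falls too, with Mmp8 at 5.56 against 4.41 and 3.69. Averaged over the list, secondary and tertiary granule genes stood at 7.27 in that pool, against 4.80 and 4.75 in the others, and monocyte and macrophage genes at 7.76, against 6.65 and 6.55. VENUS-negative MDPs differed from VENUS-positive MDPs by 7.65 for Pf4, 4.53 for Gata1, -5.01 for Irf8 and -5.95 for F13a1, each past the test.

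**Figure D4:**
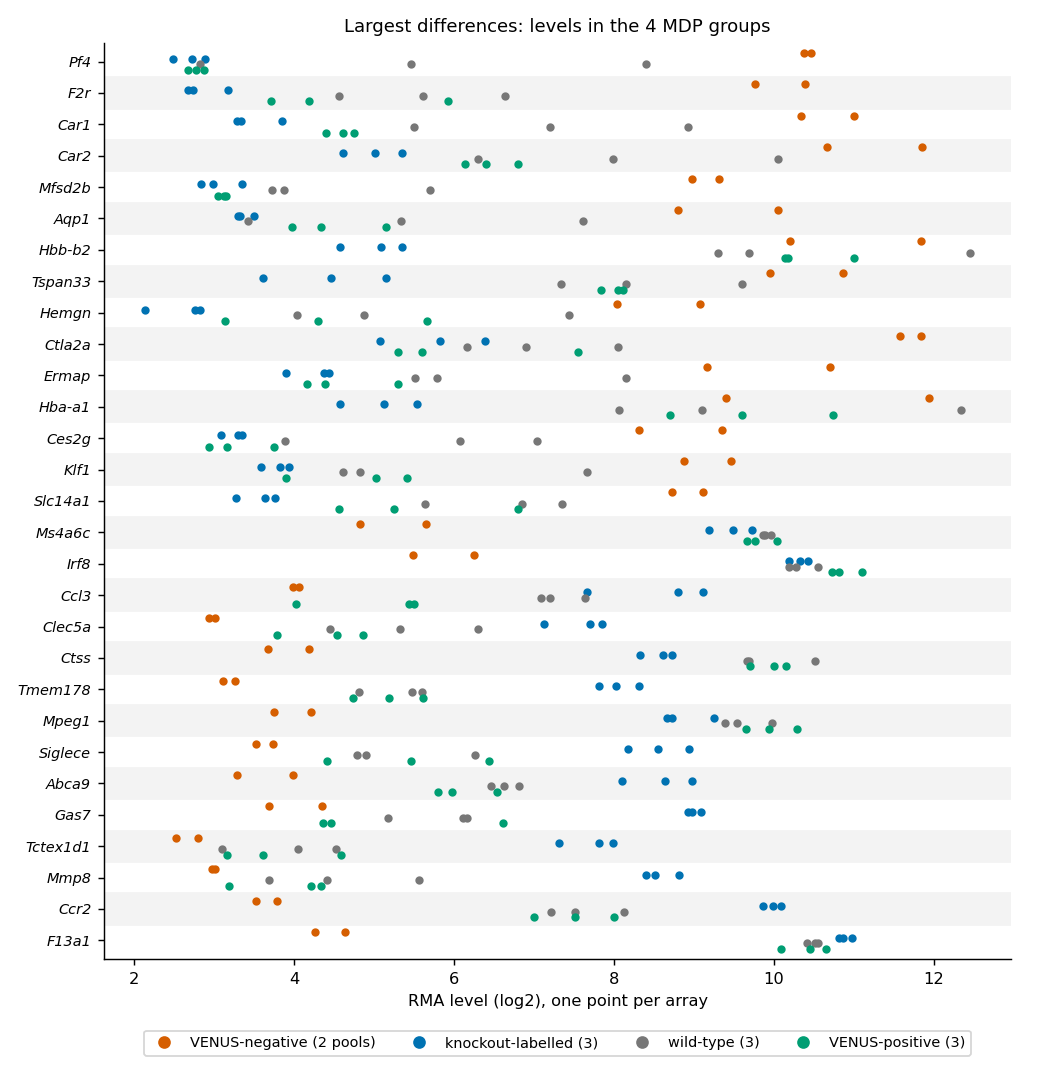
RMA levels (log2, x axis) of 29 of the 30 genes with the largest differences, a point per array, in VENUS-negative (orange), knockout-labelled (blue), wild-type (grey) and VENUS-positive MDPs (green). Rises stand in the upper rows and falls in the lower ones. Wild-type and VENUS-positive arrays lie beside the knockout-labelled ones for F13a1, Mpeg1 and Irf8, beside or near the VENUS-negative ones for Mmp8, Tctex1d1 and Hbb-b2, and between the groups for Ccr2 and Car1.

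The 2 VENUS-negative pools were not alike in all gene groups. Over all genes the median gap between them was 0.24, and the median range of the 3 knockout-labelled pools was 0.37. Pool 1 stood above pool 2 for 24 of 26 erythroid genes, by a median of 1.40 and by at least 2-fold for 18. Slc4a1, the anion exchanger band 3 of mature red cells, had 9.91 in pool 1 and 4.60 in pool 2, against 3.73, 3.84 and 3.46 in knockout-labelled pools, and did not pass the test (3.58, SE 1.42, adjusted p = 0.193). Haem genes (11 of 13, median 1.21) and cell cycle genes (28 of 34, median 0.55) were higher in pool 1 as well. Megakaryocyte and platelet genes ran the other way, with pool 1 above pool 2 for 4 of 23 (median -0.38), as did primary granule genes (1 of 15, median -0.39). For the transcription factors of the erythroid, megakaryocyte and mast cell branch the median of pool 1 minus pool 2 was 0.07. The mean level of the erythroid list was 8.11 in pool 1 and 6.65 in pool 2. Its median difference from knockout-labelled MDPs was 3.65 with pool 1 alone and 1.23 with pool 2 alone, and 19 and 9 members were called.

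**Figure D5:**
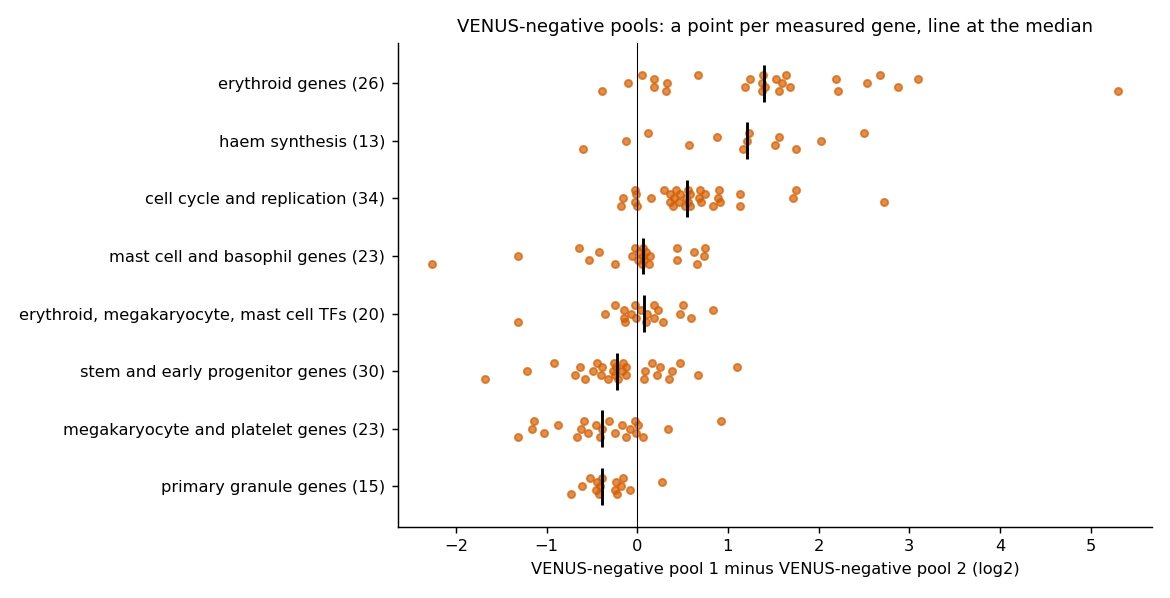
Difference between the VENUS-negative pools (pool 1 minus pool 2, log2, x axis) for the measured members of 8 gene lists, a point per gene and a black line at the median. Erythroid genes lie to the right with a median of 1.40, and megakaryocyte and platelet genes to the left with a median of -0.38.

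The called genes were also read in groups that share no array with this comparison. These comparisons come from the same fit, so the spread of a gene enters both tests. A gene with a small spread is called more easily in each, and shares above those of all genes can come in part from that. Of the 593 genes lower in VENUS-negative MDPs, 35.8% were lower and 17.7% higher in spleen granulocytes than in spleen macrophages, beside 18.4% and 12.8% of all genes (31.2% in either direction). Of the 509 genes higher in VENUS-negative MDPs, 16.3% were lower and 20.6% higher in granulocytes. No test of these shares was made. Between VENUS-positive and wild-type MDPs limma called 0 of 17097 genes, or 0% (1027 at an unadjusted p under 0.05), and the median difference was -0.07 over the genes higher and -0.05 over the genes lower in VENUS-negative MDPs.

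The promoters of some of these genes are shown because GATA factor genes and the gene of PU.1 were among those that differed. The 3 higher genes were picked from the 15 largest rises because they hold a GATA match. F13a1 and Siglece were picked from the 15 largest falls because they hold an ETS match. The sequences are the 250 bases before the gene start, from RefSeq's GRCm38.p6 table, printed 5′ to 3′ on the gene's strand, and they cover Klf1 at chr8:84901732-84901981 on the plus strand, Hba-a1 at chr11:32283422-32283671 on the plus strand, Ermap at chr4:119189996-119190245 on the minus strand, F13a1 at chr13:37050245-37050494 on the minus strand, Siglece at chr7:43660162-43660411 on the minus strand and Irf8 at chr8:120736108-120736357 on the plus strand. Capitals mark a GATA match on either strand, which was AGATAA or its variants TGATAA and AGATAG and also TGATAG, in the 3 genes that were higher, and GGAAGT or GAGGAA on either strand (ETS, the family of PU.1) in F13a1 and Siglece. Irf8 held neither, nor the composite of an ETS and an IRF site in this window.
Klf1: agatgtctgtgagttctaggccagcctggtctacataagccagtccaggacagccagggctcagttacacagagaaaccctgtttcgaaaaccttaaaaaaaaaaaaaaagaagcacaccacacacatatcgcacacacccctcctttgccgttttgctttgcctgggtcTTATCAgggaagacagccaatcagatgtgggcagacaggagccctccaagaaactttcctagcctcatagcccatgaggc
Hba-a1: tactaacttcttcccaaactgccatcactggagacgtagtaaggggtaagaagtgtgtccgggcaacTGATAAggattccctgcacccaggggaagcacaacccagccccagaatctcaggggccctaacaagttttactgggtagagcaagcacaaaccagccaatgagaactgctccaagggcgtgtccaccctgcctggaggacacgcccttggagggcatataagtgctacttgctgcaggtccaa
Ermap: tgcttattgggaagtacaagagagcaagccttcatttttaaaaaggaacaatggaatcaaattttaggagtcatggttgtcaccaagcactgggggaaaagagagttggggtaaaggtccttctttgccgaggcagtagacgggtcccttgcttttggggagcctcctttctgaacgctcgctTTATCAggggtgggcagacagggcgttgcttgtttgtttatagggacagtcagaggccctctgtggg
F13a1: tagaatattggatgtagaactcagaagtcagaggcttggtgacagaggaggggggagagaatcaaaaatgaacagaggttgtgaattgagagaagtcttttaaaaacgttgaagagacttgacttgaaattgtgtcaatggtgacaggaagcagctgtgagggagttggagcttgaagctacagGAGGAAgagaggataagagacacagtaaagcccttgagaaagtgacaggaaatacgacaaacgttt
Siglece: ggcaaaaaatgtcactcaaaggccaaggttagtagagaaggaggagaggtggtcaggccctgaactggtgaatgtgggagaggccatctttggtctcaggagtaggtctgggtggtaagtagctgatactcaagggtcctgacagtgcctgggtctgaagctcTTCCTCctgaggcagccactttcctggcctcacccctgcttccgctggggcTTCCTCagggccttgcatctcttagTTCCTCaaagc
Irf8: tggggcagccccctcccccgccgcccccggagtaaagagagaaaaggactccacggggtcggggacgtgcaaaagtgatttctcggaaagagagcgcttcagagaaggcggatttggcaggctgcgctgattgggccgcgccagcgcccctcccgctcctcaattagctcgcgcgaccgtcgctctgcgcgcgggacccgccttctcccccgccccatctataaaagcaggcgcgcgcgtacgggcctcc

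Counted from the gene start, the first base of the GATA match lies at -80 in Klf1, at -183 in Hba-a1 and at -67 in Ermap. The ETS match begins at -66 in F13a1, and those in Siglece at -87, -36 and -11. Ermap held an ETS match too, which is not in capitals. A promoter was listed for 13605 of the tested genes, and the first listed was used where a gene had several. Of the genes called higher 19.4% held a GATA match, of those called lower 18.6% and of all 20.4%. ETS matches were held by 37.3% of the genes called higher, 40.6% of those called lower and 38.0% of all, and the composite by 1.72%, 2.51% and 2.09%. Over all called genes these shares therefore lay near the background. Among genes with a difference of at least 8-fold, a limit set after the values were seen, 16 of 53 higher genes (30.2%) and 9 of 46 lower genes (19.6%) held a GATA match, and 13 of 53 (24.5%) and 24 of 46 (52.2%) an ETS match. A promoter was listed for 11 of the 15 largest rises, of which 6 held a GATA and 4 an ETS match. For the 15 largest falls 14 were listed, of which 3 held a GATA and 8 an ETS match. Ccr2 and Mpeg1, which were lower, held GATA matches too, and Pf4, which was higher, held ETS and no GATA matches. A match is a description of the sequence and was not tested as a binding site.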

How the data were processed

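The deposited values are log2 levels of the authors, for which the submitters' processing notes name RMA and Affymetrix Expression Console. RMA subtracts background, quantile-normalizes the arrays and summarises probe sets. The sources used here give neither versions nor which arrays were processed in 1 run. No columns were left unmapped (0), and 0 pairs of arrays were identical. Of 45037 probe sets, 28898 had 1 gene symbol in the platform annotation, 551 several and 15588 none, and 28689 were matched by Entrez identifier to RefSeq, with 0 symbols changed. Each of 17097 genes was read from its brightest probe set, by the mean of the 17 arrays, and 7180 of them had several. No gene was filtered out.

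Groups were compared with limma 3.58.1 (lmFit and eBayes) in R 4.3.3, two-sided, in a fit of all 17 arrays with a mean per group (11 residual and 3.21 prior degrees of freedom), with Benjamini-Hochberg adjustment over all genes. Differences are VENUS-negative minus knockout-labelled MDPs, and n counts pools. The p-values therefore reflect only how far pools differ, which may be technical, and with 2 and 3 arrays the precision is limited by their number.

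The rule names Irf8, Spi1 and the genes of the gate and MDP marker list. It also names the 15 largest rises and 15 largest falls among called genes without overlap (RIKEN genes only among the 5 largest). Of each list it names up to 5 called members, or 2 with the smallest p. Other genes were named after their values were seen. The members and the lists were chosen with earlier results of these data known. Alternatives were the arrays in the fit, each array left out, the replicate block, median centring, quantile normalization again, a filter on dim genes, the probe set per gene and the variance model. The filter on dim genes kept those whose highest group mean, over all groups, reached the overall median level. Dendritic cell samples named in the design text were not analysed here.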

Additional observations from a re-analysis of the deposited data

How the results depend on the processing

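All 5 arrays entered each result, and no array was dropped or imputed. The count of 1102 called genes (509 higher, 593 lower) was 649 (280 and 369) in a fit of the 5 arrays alone, 925 in a fit of the 11 MDP arrays, and 1711 of 28898 when every probe set was tested on its own. Both smaller fits have fewer residual degrees of freedom. With median centring it was 1145 (506 higher, 639 lower), with quantile normalization again 1125 (555 and 570), without dim genes 1114 of 10707, with the mean of a gene's probe sets 1250 and with a trended, robust variance 1092. Leaving out a VENUS-negative or knockout-labelled array gave 751 to 999 genes, with 751 without VENUS-negative pool 1, and leaving out 1 of the other 12 arrays gave 958 to 1224.

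Whether pool numbers pair the arrays could not be settled. Deviations from the group means correlated over genes at -0.09 for pools 1 and at 0.05 for pools 2. With 2 VENUS-negative pools the deviations of 1 mirror those of the other, so these values are not separate checks. With the replicate block the 5-array fit, which keeps 1 residual degree of freedom, called 110 genes (55 and 55), and the 17-array fit called 1057 (511 and 546). In the 5-array fit with the block the difference was -2.47 for Csf1r (adjusted p = 0.0512), -2.14 for Cx3cr1 (0.137) and -1.22 for Spi1 (0.119). Cx3cr1 kept its difference of -1.74 but lost its call in the fits of 5 arrays (0.141) and of 11 arrays (0.0605). Without 1 of the 5 arrays it ranged from -2.14 to -1.32 and was not called without VENUS-negative pool 1 (-1.61) or pool 2 (-1.86). Irf8, Flt3 and Kit kept their direction and their side of the threshold in all 15 alternatives.

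No gene named by the rule changed direction in the alternatives run. The fits of 5 and 11 arrays, the dim filter, the variance model and the test of every probe set return the same difference. Direction could therefore not change in them. Genes named after their values were seen were not checked as a set and are not in the counts below. Alternatives for some of them, such as Ly86, are given above. Of the 30 largest differences, 29 kept their call in all alternatives other than the replicate block in the 5-array fit (Hba-a1 did not, without VENUS-negative pool 1), and 26 kept it in that fit too. Of 98 named genes with a call, 77 kept it in the 5-array fit, 87 in the 11-array fit, 41 with the replicate block in the 5-array fit, 93 with it in the 17-array fit, 77 without VENUS-negative pool 1 and 85 to 98 under the other alternatives. The count of called haem genes, 7, was 2 without VENUS-negative pool 1 and in the 5-array fit and 3 in the 11-array fit, and that of platelet genes 9 without VENUS-negative pool 2. The median of the myeloid transcription factors was -0.25 with the mean of a gene's probe sets, and that of the secondary and tertiary granule genes -0.30 with the replicate block in the 17-array fit. With 2 against 3 pools, an absent call does not show that levels were equal.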
